A study of Mus musculus with 14 samples.

Results

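The oocyte-specific homeobox (Obox) genes were followed through the 2-cell stage of mouse embryos in RNA-seq counts. The family was taken by gene symbol, as the 7 genes Obox1, Obox2, Obox3, Obox5, Obox6, Obox7 and Obox8 of the 56923 genes in the count table, and every one of the 14 libraries was used. A further 48 entries with an Obox symbol, all but 1 of them annotated as pseudogenes, were kept apart.

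Obox genes encode homeodomain transcription factors found in rodents. Some are transcribed in the growing oocyte and passed to the egg as stored RNA, and others are transcribed from the new embryonic genome. Stored maternal RNA is cleared while the embryonic genome is switched on, first at a low level in minor zygotic genome activation (ZGA) and then broadly in major ZGA, and Obox proteins are known to help RNA polymerase II reach its targets at that time. Obox1, Obox2, Obox5 and Obox7 are treated here as maternal members and Obox3 and Obox6 as zygotic members, as they are commonly described. Obox8 was given no class.

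All embryos came from superovulated ICR mice, and each library was made from 5 embryos. The 7 conditions had 2 libraries each. Early 2-cell embryos were due at 30 h and late 2-cell embryos at 54 h after hCG, the hormone that triggers ovulation. In the G&N group the medium held 5 μM Gne140, an inhibitor of the lactate dehydrogenases, 50 μM NMN, a precursor of NAD+, and 10 mM lactate, from 24 h onwards. The G&N-L group had the same medium and start without lactate, and both groups were sampled at both stages. The G&N-L + Lac-CoA group was late 2-cell embryos cultured as G&N-L after injection of 1 mM lactyl-CoA, the donor of the lactyl group on histones. The H3K18R and WT groups were late 2-cell embryos that received 200 ng/μL mRNA of mutant or wildtype histone H3 at 14 h, added to the embryo's own histone H3. In the mutant, lysine 18, a site of lactylation, is arginine. No library came from an embryo free of both culture treatment and injection. The count table names the mutant columns K18A, and the treatment labels of the early libraries (Gne140 with NMN for titles G+N-L, Gne140 alone for titles G+N) differ from the titles, which were used for grouping.

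Counts totalled 20350427 to 61275465 per library, so that 3 counts, the limit that a count of 0 allows, equalled 0.049 to 0.147 CPM (counts scaled to a common library size, on TMM-normalized sizes over all 14 libraries). This limit covers counting error only, since amplified reads are not independent molecules. The labels do not say whether the libraries of a condition came from separate collections of embryos, so p-values measure the spread between these libraries, which may be technical. Markers of cells that could travel with embryos were low. The 15 genes of the cumulus and somatic list summed to 14.6 to 56.1 CPM with 6 to 9 of them at 0 in a condition, and the 4 sperm transcripts summed to 1.82 to 19.3 CPM. In RNA of whole embryos, fewer cells of a type and less RNA per cell cannot be told apart.

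The 7 genes lie on chromosome 7 within 1508 kb (GRCm39, the build the authors used as mm39). From the low to the high coordinate they are Obox8 (14065361 to 14067498, minus strand), Obox7 (14393421 to 14399921, plus), Obox2 (15122646 to 15132470, plus), Obox1 (15122646 to 15290791, plus), Obox3 (15359227 to 15373827, minus), Obox5 (15483527 to 15493725, plus) and Obox6 (15567166 to 15573603, minus). All are annotated as protein coding, and the values below count reads over their exons. The count table gives them as ENSMUSG00000099216.2, ENSMUSG00000055942.14, ENSMUSG00000074369.13, ENSMUSG00000054310.17, ENSMUSG00000066772.13, ENSMUSG00000074366.10 and ENSMUSG00000041583.9 in this order. The maternal and zygotic members are interleaved along the cluster. Between them lie 39 entries named Obox4-ps and 7 of the 8 named Obox3-ps, while the other Obox3-ps entry and the single Obox6-ps entry lie on chromosome 17.

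**Figure D1:**
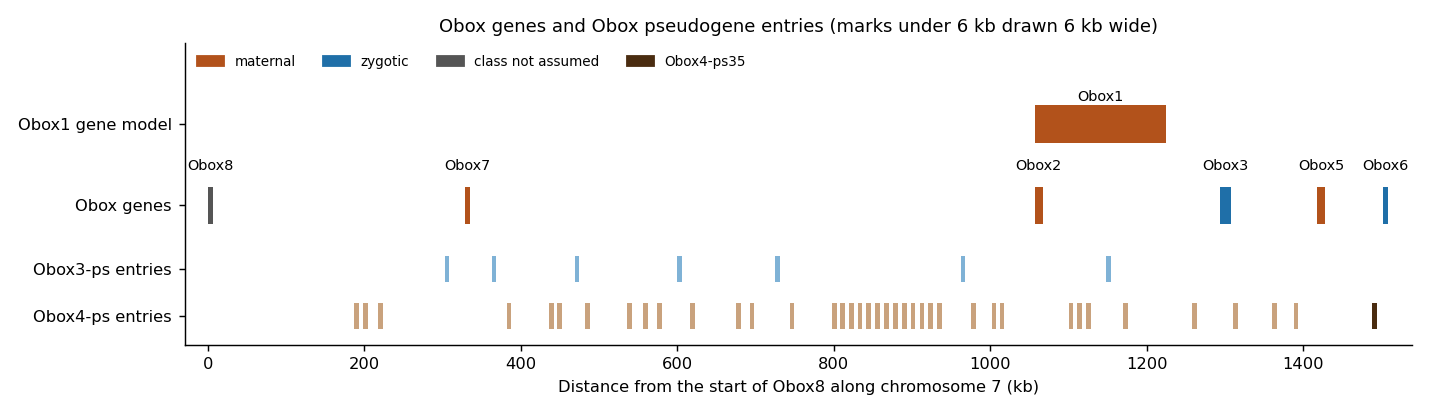
Map of the Obox cluster, with distance from the start of Obox8 in kb on the horizontal axis and one row each for the Obox genes, the long gene model of Obox1, the Obox3-ps entries and the Obox4-ps entries. Coloured blocks are the genes, pale marks the pseudogene entries and the dark mark Obox4-ps35, and the 7 genes span 1508 kb with maternal and zygotic members next to each other.

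The members are close copies, which bears on how reads were shared out between them. The coding sequences of Obox1 and Obox2 were 98.5% identical over their aligned bases, and those of Obox1, Obox2, Obox3, Obox5 and Obox7 were 92.9 to 98.5% identical to each other. Obox6 was 76.6 to 80.9% identical to these 5, and Obox8 63.4 to 69.4%. Of all 100-base windows of the canonical Obox1 transcript, 40.9% occurred unchanged in Obox2, and 42.5% of those of Obox2 occurred in Obox1. In the annotation used here, 1 transcript of Obox1 also starts within Obox2, with 286 bases of exon in common. For Obox3 15.9% of windows occurred in other genes, mostly Obox3-ps3, for Obox7 2.69% and for Obox5 0.115%, and for Obox6 and Obox8 none did. These shares depend on the window length. Of 50-base windows, 59.3% occurred in other genes for Obox1, 63% for Obox2 and 32.7% for Obox3. For Obox7 it was 20.2%, for Obox5 13%, for Obox6 5.02% and for Obox8 0%. How reads that match several genes were counted is not given in the sources used here, so Obox1, Obox2 and Obox3 are uncertain as single genes, and Obox5, Obox6 and Obox8 are the best separated members.

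The upstream bases are shown because Obox1 and Obox3, which changed in opposite directions over the 2-cell stage, and Obox5, the most abundant maternal member, carry near copies of the same bases. The sequences are from RefSeq on GRCm38.p6, where 5 of the 7 members have an entry (Obox6 and Obox8 have none), and each gives the 150 bases before the annotated start, 5′ to 3′ on the gene's strand. Capitals mark the runs of at least 10 bases found unchanged in the windows of all 5 members.
Obox5 (maternal, chr7:15750220-15750369, plus strand): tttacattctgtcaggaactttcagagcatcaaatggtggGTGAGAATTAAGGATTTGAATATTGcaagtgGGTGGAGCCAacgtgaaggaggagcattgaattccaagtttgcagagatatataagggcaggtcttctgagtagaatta
Obox1 (maternal, chr7:15547107-15547256, plus strand): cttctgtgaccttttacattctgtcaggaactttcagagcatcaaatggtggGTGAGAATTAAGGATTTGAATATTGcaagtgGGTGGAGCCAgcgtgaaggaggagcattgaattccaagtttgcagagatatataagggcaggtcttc
Obox3 (zygotic, chr7:15639778-15639927, minus strand): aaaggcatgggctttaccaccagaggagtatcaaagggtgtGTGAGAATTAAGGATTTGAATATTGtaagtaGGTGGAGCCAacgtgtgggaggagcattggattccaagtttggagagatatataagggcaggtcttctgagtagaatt

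The longest shared run, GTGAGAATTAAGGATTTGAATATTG of 25 bases, was found in 5 of 32851 promoter windows of 300 bases, and these were the windows of Obox1, Obox2, Obox3, Obox5 and Obox7. A second run, GGTGGAGCCA, was found in 99 of them. Over the 150 bases, Obox5 was 99.3% identical to Obox1 and 90.1% identical to Obox3 where they aligned. The annotated start of Obox2 lies further upstream, so its copy of the run begins at the last base before the start. Motifs were searched on both strands of the 300 bases. TATATAA, chosen after the sequences were seen, occurred in 4 of the 5 members and in 3.24% of all promoters. It began 31 bases before the annotated start of Obox5, 30 before that of Obox3, 19 before that of Obox1 and 5 before that of Obox7. The TATA box TATAAA occurred in Obox3 alone of the 5 and in 13.6% of all promoters. The OTX-type homeodomain core GGATTA also occurred in Obox3 alone, beside 7.06% of all promoters. CCAAT, read by NFY, occurred in Obox2, Obox3 and Obox7 and in 37.4% of all promoters. TAATTA, another homeodomain core, and the E-box CACGTG occurred in no member's window, beside 5.29% and 7.15% of all promoters.

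In early 2-cell embryos almost all counts of the family were those of the maternal members, and at the late stage the zygotic members stood at 126 CPM or more in every library. Obox8 was at 36.5 CPM or more in the late libraries other than those of G&N-L, where it was at 3.12 and 8.01 CPM. The 7 genes together took 1.71 to 2.15% of all counts in the early libraries, 0.877 to 1.3% in the late libraries of the G&N, G&N-L and Lac-CoA groups, and 0.464 to 0.55% in the H3K18R and WT libraries.

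**Figure D2:**
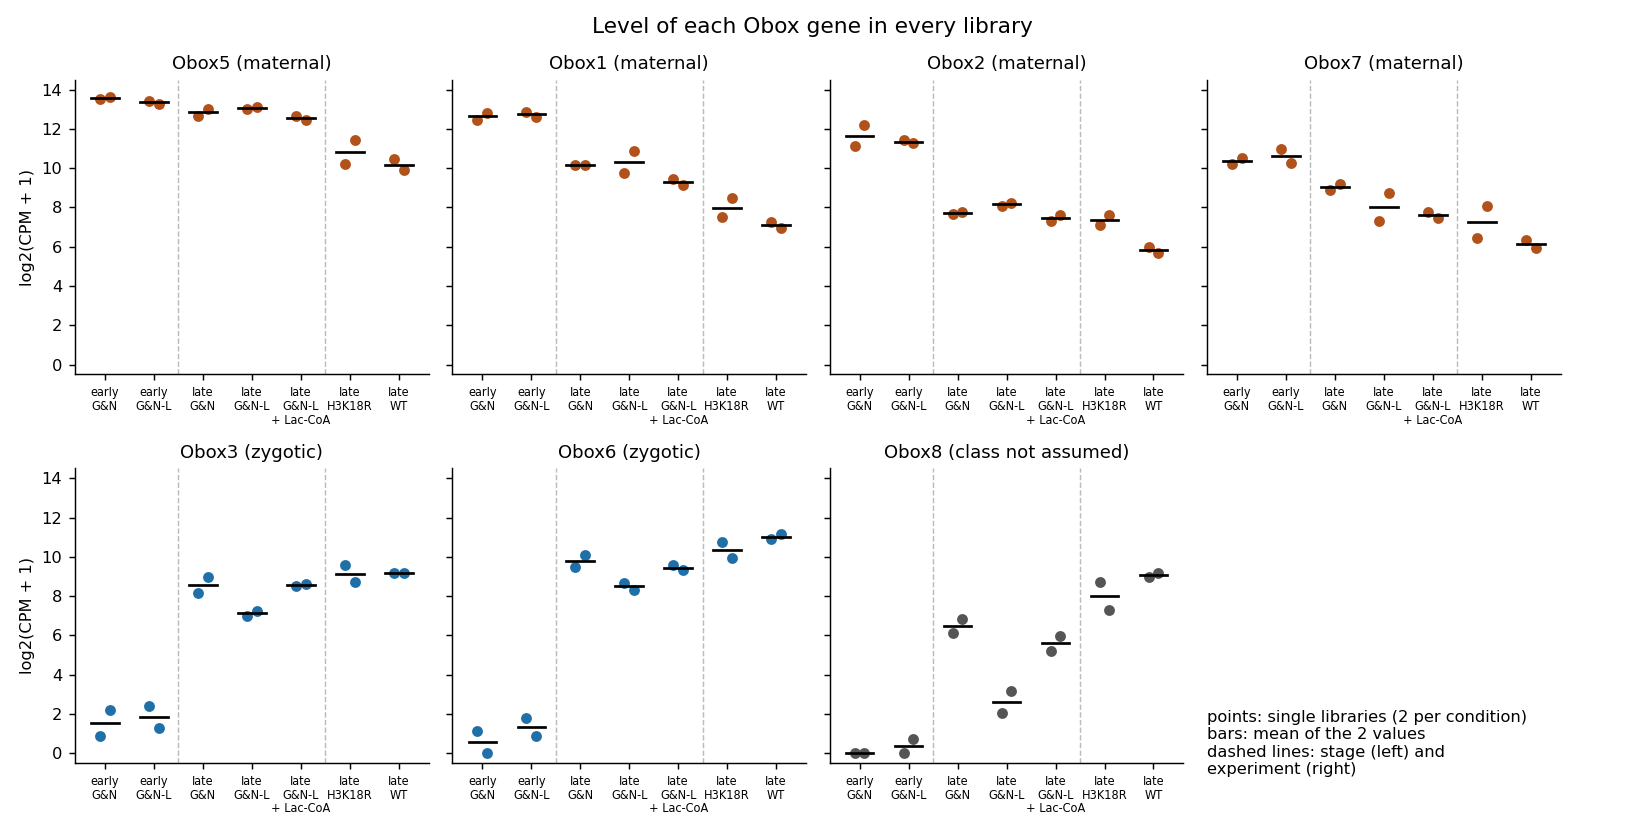
Level of each Obox gene as log2(CPM + 1), by condition, with 1 panel per gene. Points are single libraries, 2 per condition, and bars their mean. Dashed lines part the early from the late stage, and the culture groups (G&N, G&N-L and Lac-CoA) from H3K18R and WT. Maternal members stand highest at the early stage, and Obox3, Obox6 and Obox8 lie at or under 4.33 CPM in every early library.

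Obox5 was the highest maternal member and among the most abundant transcripts of the embryo, ranking 8 to 10 of all genes by CPM in the early libraries. Its level was 11665 and 12610 CPM in early G&N, 10938 and 9958 in early G&N-L, 6397 and 8364 in late G&N, 8299 and 8987 in late G&N-L, and 6430 and 5683 CPM with Lac-CoA. In the groups given H3 mRNA it was 1183 and 2753 CPM in H3K18R and 1428 and 946 CPM in WT. The late libraries of the culture groups (G&N, G&N-L and the also injected Lac-CoA group) all lay below the early ones. The H3K18R and WT libraries lay below both and overlapped each other. Per kb of transcript Obox5 stood at 6629 ± 365 CPM (SD, n = 2) in early G&N, followed by Obox1 at 4241 ± 801, Obox2 at 2347 ± 1185 and Obox7 at 893 ± 145. The libraries of these genes did not overlap within early G&N on this scale, except where reads shared by Obox1 and Obox2 leave their order uncertain.

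Obox1 and Obox2, the near-identical maternal pair, were lower still relative to their early level. Obox1 was 5557 and 7269 CPM in early G&N and 7534 and 6219 in early G&N-L, against 1126 and 1158 in late G&N, 875 and 1880 in late G&N-L and 688 and 557 with Lac-CoA. It stood at 181 and 350 CPM in H3K18R and 153 and 121 in WT. The early libraries lay above all others, and those with Lac-CoA lay below both late G&N and late G&N-L. Obox2 was 2202 and 4647 CPM in early G&N and 2743 and 2485 in early G&N-L, and then 203 and 214, 267 and 300, and 159 and 195 in late G&N, G&N-L and Lac-CoA. It was 137 and 196 CPM in H3K18R and 62.3 and 50.9 in WT, so that the WT libraries were the lowest of the 14. The 2 early G&N libraries of Obox2 differed by more than those of any other maternal member.

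Obox7, the least abundant maternal member, was 1166 and 1468 CPM in early G&N and 2013 and 1218 in early G&N-L. At the late stage it was 473 and 577 in G&N, 156 and 423 in G&N-L, 220 and 177 with Lac-CoA, 85.7 and 266 in H3K18R and 80.8 and 59.5 CPM in WT. Late G&N was the highest of the late groups and WT the lowest, while G&N-L, Lac-CoA and H3K18R overlapped their neighbours in the order of means.

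Per kb of transcript, Obox6 had the higher mean of the zygotic members in each late group, and Obox3 in both early groups. In the early libraries Obox6 was 1.18 and 0 CPM in G&N and 2.44 and 0.861 in G&N-L, and at the late stage 711 and 1074 in G&N, 406 and 318 in G&N-L and 768 and 638 with Lac-CoA. H3K18R libraries gave 1753 and 975 CPM and WT libraries 1943 and 2256, where Obox6 ranked 40 and 32 among all genes. WT lay above all other groups and late G&N-L below all other late groups, whereas late G&N overlapped both H3K18R and Lac-CoA.

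Obox3, the other zygotic member, was 0.863 to 4.33 CPM in the early libraries. It reached 289 and 498 CPM in late G&N, 126 and 153 in late G&N-L, 361 and 385 with Lac-CoA, 766 and 420 in H3K18R and 572 and 570 in WT. Late G&N-L was again the lowest late group, without overlap. Obox8 had 0 and 1 counts in early G&N and 0 and 14 counts in early G&N-L. Late it was 67.6 and 115 CPM in G&N, 3.12 and 8.01 in G&N-L, 36.5 and 61.5 with Lac-CoA, 422 and 158 in H3K18R and 495 and 582 in WT. Its late groups did not overlap at any step of the order WT, H3K18R, G&N, Lac-CoA, G&N-L.

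The first comparison, late against early within G&N, asks how the family changed over the 2-cell stage with lactate present, although stage and the time spent in the treated medium cannot be told apart. Obox3, Obox6 and Obox8 rose and Obox1, Obox2 and Obox7 fell, by edgeR's quasi-likelihood test with Benjamini-Hochberg adjustment over 19443 genes. The 3 that rose stand beside 8.18% of all genes called higher, and the 3 that fell beside 5.47% called lower. All 4 maternal members were lower in both late libraries than in both early ones and Obox3, Obox6 and Obox8 higher, beside 28.9% and 35.7% of all genes without overlap in these directions.

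Obox2 fell by 4.15 on the log2 scale (SE 0.507, adjusted p = 0.0116), a 16.4-fold difference of mean CPM. Obox1 fell by 2.58 (SE 0.306, adjusted p = 0.0109) and Obox7 fell by 1.42 (SE 0.292, adjusted p = 0.0371). Obox5 had a log2 fold change of -0.80 (SE 0.273) that did not pass, at an adjusted p of 0.101. Obox6 rose by 10.53 on the log2 scale (SE 1.52, adjusted p = 0.0161), from 0.589 ± 0.832 to 892 ± 257 CPM (SD, n = 2). The size of this change is uncertain, since early G&N replicate 2 had no Obox6 count, and the value was 9.61 without that library and 18.15, which depends on the prior count, without early G&N replicate 1. Obox3 rose by 7.32 (SE 0.932, adjusted p = 0.0128), 175-fold. For Obox8, with 1 count in both early G&N libraries together and 7464 in the late ones, the ratio per total count was 10941 with an exact 95% counting interval of 1963 to 432208, and its adjusted p was 0.00599.

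The test had 4 libraries, so leaving 1 out leaves a single library in 1 group. Most members called lost that call without either late G&N library, and the share of all genes called in those fits is not given here. When scaled by library totals instead of TMM, the median log2 fold change of all genes moved from 0.08 to 0.46 and the split of calls from 1591 higher and 1063 lower to 2005 and 618. The median over the maternal members was then -1.59 in place of -2.00, and over the zygotic members 9.29 in place of 8.92.

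Without lactate the same comparison, late against early G&N-L, called Obox3 and Obox6 higher and Obox1, Obox2 and Obox7 lower. In this comparison 5.97% of 18604 genes were called higher and 5.87% lower. Obox3 rose by 5.53 on the log2 scale (SE 0.572, adjusted p = 0.00924) and Obox6 by 7.68 (SE 0.551, adjusted p = 0.00524). Obox2 fell by 3.26 (SE 0.14, adjusted p = 0.00489), Obox1 fell by 2.38 (SE 0.372, adjusted p = 0.0223) and Obox7 fell by 2.54 (SE 0.518, adjusted p = 0.0419). Obox8, at 0.317 ± 0.449 CPM early and 5.57 ± 3.46 CPM late (SD, n = 2), had a log2 fold change of 4.06 (SE 1.98) with an adjusted p of 0.24, and with all 14 libraries in one fit an adjusted p of 0.0127, where 7.31% of all genes were called higher. Its early level rested on the 14 counts of replicate 2, and the log2 fold change was 10.74 (adjusted p = 0.0548) without that library. Obox5 did not pass, with -0.33 (SE 0.106, adjusted p = 0.0921). All 7 members were without overlap between the stages, 3 higher and 4 lower, beside 36.4% and 26.1% of all genes. With library totals the split of calls moved from 1111 higher and 1092 lower to 1819 and 685, with a shift of the median of all genes from 0.15 to 0.51, and Obox5 stood at 0.03. Obox7 lost its call under library totals (adjusted p = 0.0506).

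**Figure D3:**
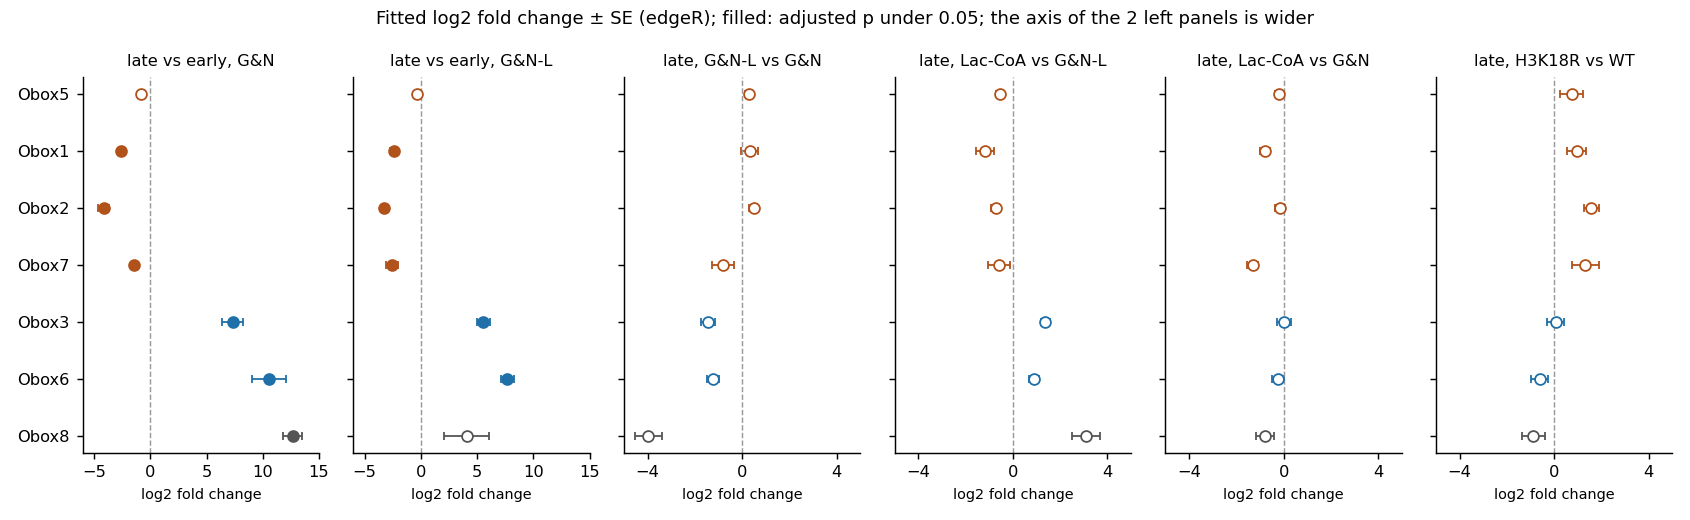
Fitted log2 fold change of each Obox gene (horizontal axis) with its SE as the bar, in 6 comparisons of 4 libraries each. Filled symbols passed an adjusted p under 0.05 and open symbols did not. The 2 left panels, between stages, have a wider axis, and only they hold filled symbols, from -4.15 for Obox2 to 12.66 for Obox8 in G&N.

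Whether lack of lactate changed the family at the early stage was asked within early 2-cell embryos. No member was called, with 0% of 17343 genes called by edgeR. At an unadjusted p under 0.05 there were 784 genes (4.52%) and no member, and DESeq2 called 0.219% of all genes and no member. Obox8 did not pass the filter on low counts. The log2 fold changes of the maternal members ran from -0.31 for Obox2 to 0.38 for Obox7, and those of Obox3 and Obox6 were 0.37 (SE 1.08) and 1.67 (SE 2.12), at levels of a few CPM. Obox5 alone was without overlap, lower in G&N-L by 0.11 on the log2 scale (SE 0.172), beside 21.3% of all genes, and no member was higher without overlap, beside 11.4%.

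At the late stage the zygotic members and Obox8 were lower without lactate, while the maternal members were spread around no change. Obox3 stood at 140 ± 19.4 CPM in G&N-L against 394 ± 148 in G&N, Obox6 at 362 ± 62.6 against 892 ± 257, and Obox8 at 5.57 ± 3.46 against 91.1 ± 33.2 (SD, n = 2). The log2 fold changes were -1.44 (SE 0.293) for Obox3, -1.24 (SE 0.256) for Obox6 and -3.98 (SE 0.567) for Obox8. By edgeR none of the 7 passed, with 0% of 19481 genes called and adjusted p-values of 0.313, 0.313 and 0.311 for these 3. At an unadjusted p under 0.05 stood 4 members, these and Obox2, beside 12% of all genes. DESeq2 called the 3 lower, with adjusted p-values of 0.000554, 0.00086 and 1.17e-11, beside 3.19% of all genes called lower by that test. EdgeR called the same 3 genes when no filter, or a filter of at least 10 counts in every library, replaced its default filter, with adjusted p-values for Obox8 of 4.47e-05 and 0.0135 and with 0.871% and 0.731% of all genes called lower.

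Among the maternal members, Obox1 had a log2 fold change of 0.31 (SE 0.354), Obox5 0.28 (SE 0.157), Obox2 0.49 (SE 0.185) and Obox7 -0.82 (SE 0.458), none of them called by either test. Obox3, Obox6, Obox7 and Obox8 were lower in both G&N-L libraries and Obox2 higher, beside 24.9% and 18.6% of all genes without overlap in these directions. The medians were -1.34 over the zygotic members and 0.30 over the maternal members, beside -0.02 over all genes tested.

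Whether the change without lactate differed between the stages was asked with an interaction term, fitted on the 8 G&N and G&N-L libraries. No member passed, with 0% of 22287 genes called by edgeR, Obox8 alone of the members and 7.55% of genes at an unadjusted p under 0.05, and 1.07% of genes but no member called by DESeq2. The interaction term was -8.47 (SE 2.13, adjusted p = 0.574) for Obox8, -2.87 (SE 1.31) for Obox6 and -1.81 (SE 0.969) for Obox3, and those of the maternal members ran from -1.16 for Obox7 to 0.85 for Obox2. Single early libraries with few or no counts set these values. Obox8 was at -1.76 (SE 7.32) without early G&N-L replicate 2, and Obox6 at -10.28 without early G&N replicate 1 and at -1.88 without early G&N replicate 2. Without a filter on low counts edgeR called Obox3, Obox6 and Obox8, at adjusted p-values of 0.0105, 3.23e-08 and 6.45e-13, beside 0.715% of all genes called lower, where early levels near 0 enter the term.

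Lac-CoA was given to embryos without lactate to supply the donor of the lactyl group, and this group was compared with each of the other late culture groups. The G&N and G&N-L embryos are not described as injected, so Lac-CoA and the injection itself cannot be told apart here. Both comparisons, and that of G&N-L with G&N, share libraries, so their values are set side by side and are not independent. Against G&N-L, the log2 fold changes were 1.37 (SE 0.186) for Obox3, 0.91 (SE 0.212) for Obox6 and 3.09 (SE 0.59) for Obox8. For the maternal members they were -1.19 (SE 0.378) for Obox1, -0.73 (SE 0.191) for Obox2, -0.56 (SE 0.135) for Obox5 and -0.58 (SE 0.474) for Obox7.

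By edgeR none of these passed (adjusted p from 0.294 to 0.728, 0% of 19610 genes called). At an unadjusted p under 0.05 stood all members but Obox7, beside 13.3% of genes. DESeq2 called Obox3, Obox6 and Obox8 higher and Obox1, Obox2 and Obox5 lower, with adjusted p-values from 2.18e-07 for Obox3 to 0.0249 for Obox5, beside 3.5% of all genes called higher and 2.69% called lower. The same 6 members were without overlap in these directions, beside 24.8% and 22% of all genes.

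Against G&N, the zygotic members with Lac-CoA differed by 0.02 (SE 0.286) for Obox3 and -0.24 (SE 0.252) for Obox6 on the log2 scale, and their libraries overlapped. Obox8 was at 49 ± 17.7 against 91.1 ± 33.2 CPM (SD, n = 2), a log2 fold change of -0.79 (SE 0.386). These SEs leave room for changes of either sign for Obox3 and Obox6. Obox7 was at 199 ± 30.1 against 525 ± 74.1 CPM and Obox1 at 622 ± 92.3 against 1142 ± 22.3 CPM (SD, n = 2), with log2 fold changes of -1.31 (SE 0.228) and -0.78 (SE 0.204). EdgeR called no member, with an adjusted p of 0.5 for both, 0% of 19613 genes called, and both members but no other stood at an unadjusted p under 0.05, beside 8.51% of genes. DESeq2 called these 2 lower (adjusted p = 2.63e-05 and 0.0189), beside 1.05% of all genes. Without overlap, Obox1, Obox2, Obox7 and Obox8 were lower and no member higher, beside 22.2% and 17.4% of all genes.

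The H3K18R group was compared with WT to ask what mutant histone H3 did beyond wildtype histone H3. The 4 maternal members had higher means in H3K18R, with log2 fold changes of 1.56 (SE 0.32) for Obox2, 1.32 (SE 0.566) for Obox7, 0.95 (SE 0.392) for Obox1 and 0.73 (SE 0.467) for Obox5. The zygotic members were at 0.06 (SE 0.355) for Obox3 and -0.62 (SE 0.355) for Obox6, and Obox8 at -0.89 (SE 0.494). No member passed by edgeR, where 0.00565% of 17704 genes were called higher and 0% lower and Obox2 alone of the members, beside 6.44% of genes, had an unadjusted p under 0.05. Obox2 had an adjusted p of 0.734 by edgeR, 0.0278 by edgeR without a filter on low counts, where 0.236% of genes were called higher, and 0.00723 by DESeq2, which called no other member and 0.503% of all genes higher.

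Obox1, Obox2 and Obox7 were higher in both H3K18R libraries than in both WT libraries and Obox6 and Obox8 lower, beside 19.5% of all genes in either direction. The H3K18R libraries lay apart from each other in all 7 members. Replicate 2 had the higher level of each maternal member and the lower level of Obox3, Obox6 and Obox8, and without replicate 2 the log2 fold change of Obox5 was -0.00, that of Obox7 0.29 and that of Obox1 0.40, while Obox3 was at 0.43, Obox6 at -0.26 and Obox8 at -0.35. Without replicate 1 they were 1.21, 1.92 and 1.34 for Obox5, Obox7 and Obox1 and -0.45, -1.11 and -1.77 for Obox3, Obox6 and Obox8.

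WT and late G&N embryos are both late 2-cell embryos with lactate not withheld, but they differ in Gne140 and NMN and in injection, and these cannot be told apart. The labels do not say whether the 2 groups come from the same experiment. Obox1, Obox2, Obox5 and Obox7 were lower in WT and Obox8 higher, each at an adjusted p of 0.0413. The log2 fold changes were -3.10 (SE 0.215), -1.93 (SE 0.223), -2.68 (SE 0.273) and -2.94 (SE 0.251) for the 4 maternal members and 2.53 (SE 0.30) for Obox8. EdgeR called 2.68% of 18986 genes lower and 1.94% higher. The 4 maternal members were lower without overlap and Obox3, Obox6 and Obox8 higher, beside 32.4% and 28.2% of genes. Obox6 missed the threshold at 1.20 (SE 0.239, adjusted p = 0.0572) and passed it by DESeq2 (adjusted p = 6.53e-05, beside 10.6% of genes called higher) and with the replicate number as a block (adjusted p = 0.0465), although the numbers did not pair the libraries. Obox3 was at 0.50 (SE 0.277, adjusted p = 0.322). With each library left out in turn, the log2 fold change ran from -3.27 to -2.94 for Obox1 and from 2.22 to 3.02 for Obox8. Calls of members were lost in some of these fits, and the share of all genes called there is not given here.

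Summed over the members, maternal CPM was 23292 ± 3822 in early G&N, 21554 ± 2367 in early G&N-L, 9256 ± 1496 in late G&N, 10593 ± 1410 in late G&N-L and 7054 ± 625 with Lac-CoA (SD, n = 2). It was 2576 ± 1398 in H3K18R and 1452 ± 387 in WT. Zygotic CPM was 2.84 ± 1.13 and 4.53 ± 3.19 in the early groups, 1286 ± 405 in late G&N, 502 ± 43.1 in late G&N-L, 1076 ± 75 with Lac-CoA, 1957 ± 795 in H3K18R and 2670 ± 220 in WT. Obox5 held 47.1 to 56.7% of maternal counts in the early libraries and 74.6 to 86.5% in the late ones. Of the zygotic sum, Obox3 had the higher mean in the early groups and Obox6 in the late ones.

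The log2 ratio of zygotic to maternal CPM gave 1 value per library. It was -13.30 and -12.80 in early G&N, -11.74 and -13.10 in early G&N-L, -3.04 and -2.71 in late G&N, -4.17 and -4.62 in late G&N-L and -2.73 and -2.69 with Lac-CoA. In H3K18R it was 0.67 and -1.35 and in WT 0.54 and 1.26. The maternal members had the larger sum in every library of the culture groups, and the zygotic members in both WT libraries and in 1 H3K18R library. Late G&N-L lay below late G&N and Lac-CoA, which overlapped, and H3K18R overlapped WT.

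**Figure D4:**
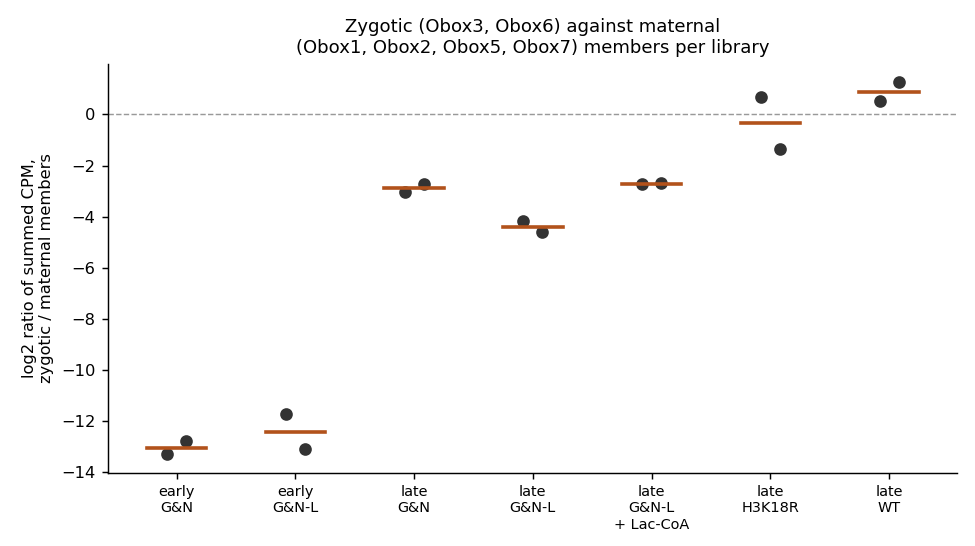
Log2 ratio of the summed CPM of the zygotic members Obox3 and Obox6 to that of the maternal members Obox1, Obox2, Obox5 and Obox7, for each library (points, 2 per condition) with the mean of the 2 values as a bar. The dashed line marks equal sums, which both WT libraries exceed at 0.54 and 1.26, while late G&N-L stands lowest of the late groups at -4.17 and -4.62.

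Among the 48 other Obox entries, most of the counts in the late libraries were in Obox3-ps. Obox4-ps35 is an entry that the annotation lists as a long non-coding RNA between Obox5 and Obox6. The 8 Obox3-ps entries summed to 5.98 to 15.7 CPM in the early libraries, 552 and 1082 in late G&N, 351 and 402 in late G&N-L, 814 and 974 with Lac-CoA, 2558 and 971 in H3K18R and 1447 and 1667 CPM in WT. They exceeded Obox3 in every library, and like Obox3 they were lowest of the late groups in G&N-L. Obox4-ps35 was at 0 to 0.0907 CPM early, 63.4 and 105 CPM in late G&N, 22.3 and 60.8 in late G&N-L, 56.9 and 73.2 with Lac-CoA, 156 and 90.3 in H3K18R and 116 and 145 in WT. The other 38 Obox4-ps entries summed to 4.03 to 109 CPM in a library, and 5 of the 39 had no count anywhere, which allows 3 counts per library.

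**Figure D5:**
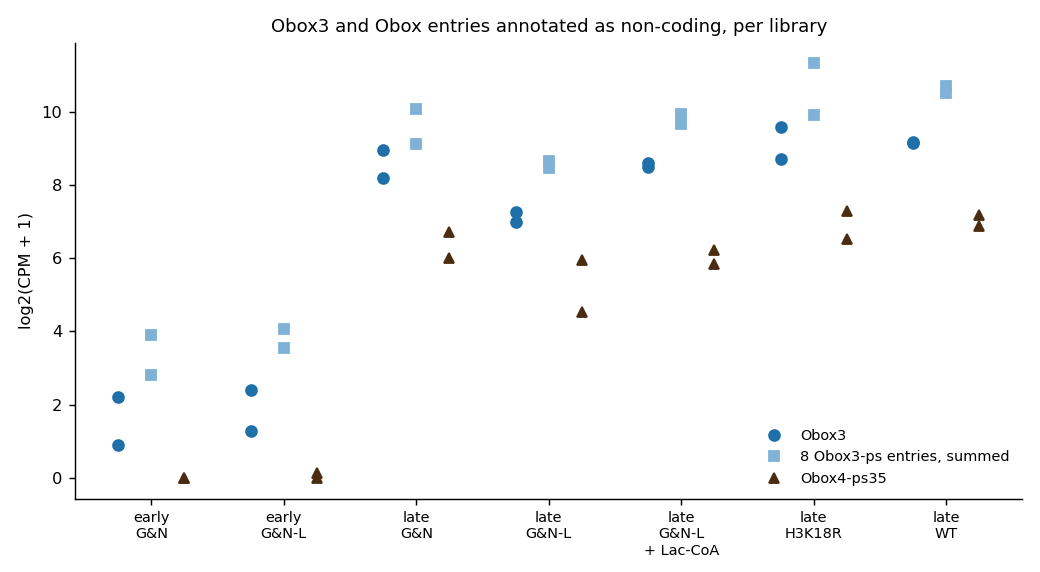
Obox3 (circles), the sum of the 8 Obox3-ps entries (squares) and Obox4-ps35 (triangles) as log2(CPM + 1) in each library, by condition, with 2 points per condition. The early libraries lie at or under 15.7 CPM, and the Obox3-ps sum lies above Obox3 in each library.

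Other homeobox genes, and the lists of genome activation factors and oocyte genes, were set beside the family as counts. Crxos, a homeobox gene that lies 42939 bp beyond Obox6 (chromosome 7, 15616542 to 15637964, plus strand, GRCm39), had mean levels of 0.0847 and 1.69 CPM in early G&N and G&N-L, 1146 in late G&N, 364 in late G&N-L, 843 with Lac-CoA, 1902 in H3K18R and 3623 in WT. It rose from early to late by 13.62 in G&N and 7.63 in G&N-L on the log2 scale (adjusted p = 0.00326 and 0.0133) and was higher in WT than in late G&N by 1.61 (adjusted p = 0.0413). Between late G&N-L and G&N it was at -1.61 (SE 0.205, adjusted p = 0.311). Nobox, an oocyte homeobox factor, fell by 2.27 in G&N and by 1.06 in G&N-L between the stages (adjusted p = 0.0246 and 0.0331). Duxf3, the multicopy activator of minor ZGA, was at 0.689 CPM or less in every group mean and at 0 in H3K18R and WT, Lhx8 at 7.46 to 51.7 CPM and Pou5f1 at 1.06 to 10.4 CPM. Of the 20 homeobox relatives on the list, 17 were found and 9 were tested between late and early G&N. Of these 9, 2 were called higher and 1 lower, beside 8.18% and 5.47% of all genes.

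Of the 25 oocyte genes, 13 fell and none rose between early and late G&N, beside 5.47% and 8.18% of all genes. In G&N-L 9 fell, beside 5.87%, and 7 of 24 tested were lower in WT than in late G&N, beside 2.68%. Their median log2 fold changes were -1.56, -0.77 and -1.37, beside medians of -2.00, -2.46 and -2.81 over the maternal Obox members. In the other late comparisons no oocyte gene was called, where edgeR called 0% of all genes, or 0.00565% for H3K18R against WT. The oocyte medians there had the sign of the maternal Obox medians. They were 0.32 beside 0.30 for G&N-L against G&N and -0.69 beside -0.66 for Lac-CoA against G&N-L. For Lac-CoA against G&N they were -0.32 beside -0.49, and for H3K18R against WT 0.44 beside 1.14. Btg4, which recruits the deadenylase that clears maternal RNA, fell by 1.17 between stages in G&N (adjusted p = 0.0427) and was at -0.39 (adjusted p = 0.0774) in G&N-L. Between WT and late G&N its log2 fold change was -2.65 (adjusted p = 0.0413). Zar1, an oocyte RNA-binding factor, fell by 2.17 in G&N (adjusted p = 0.0223).

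Of the genome activation factors, 6 of 19 tested rose and 1 fell in G&N, beside 8.18% and 5.47% of all genes. In G&N-L 5 of 17 rose and 1 fell, beside 5.97% and 5.87%. The median of these factors between late G&N-L and late G&N was -0.83, beside -1.34 over Obox3 and Obox6. None of them was called there by edgeR, which called 0% of all genes. Nr5a2, an orphan nuclear receptor of the 2-cell embryo, was at -1.26 (SE 0.288, adjusted p = 0.316) in that comparison, and Zscan4d, a marker of 2-cell embryos, at 0.38 (SE 0.20, adjusted p = 0.581).

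As a description over the 14 libraries, the genes most like Obox5 among 7672 genes with a mean of at least 10 CPM were Nlrp4e, Btg4, Gm48648, Nlrp4f and 7420426K07Rik, with Pearson's r of log2 CPM from 0.985 to 0.988. Those most like Obox6 were Mt1, Selenos, Prdx4, Tbc1d12 and Slc35e3, with r from 0.992 to 0.995. The early and late stage form separate clusters in these values, and over the 10 late libraries alone r was 0.983 to 0.994 for the first 5 genes and 0.683 to 0.977 for the second 5. The late libraries were themselves split for Obox5, at 5683 to 8987 CPM in G&N, G&N-L and Lac-CoA and 946 to 2753 CPM in H3K18R and WT. How far these r rest on that split was not tested.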

How the data were processed

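The submitters' processing notes name FastQC, Trim Galore, HISAT2, featureCounts and DESeq2 as tools and mm39 as the build. Versions, strand setting and treatment of multimapping reads are not given in the sources used here. The authors deposited raw counts of 56923 genes without normalization. The methods state 3 replicates, and 2 libraries per group were analysed here. Replicates differed by more than counting noise (chi-square per degree of freedom 51.9 to 216).

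Tests used edgeR 4.0.16 in R 4.3.3 (default filter on low counts, TMM, quasi-likelihood test, two-sided, Benjamini-Hochberg over all genes tested, threshold 0.05), each comparison on its own 4 libraries, and with DESeq2 1.42.0 as an alternative. SEs are the log2 fold change divided by the root of F. Fits use a prior count of 0.125, and log2 CPM for likeness one of 2. Levels per kb use the canonical transcript of GENCODE M39. With 2 libraries in each group, the smallest p of an exact two-sided permutation is 0.333, so none was run. On simulated data for late against early G&N, with 200 of 19443 genes changed by 3 on the log2 scale, edgeR recovered 34.8% with 6 false calls, and for late G&N-L against G&N 45.4% with 9 false calls among 19481 genes. The simulation fixed the number of changed genes and the size of change, and took means over both groups. Its rates therefore do not give the sensitivity of the real comparisons. Replicate numbers did not pair the libraries (correlation of deviations -0.0478 to 0.0112). The members, the gene lists and the genes to name (all members, the 9 named relatives and factors, and the 5 genes most like Obox5 and Obox6) were chosen with earlier results of these data known. Alternatives were DESeq2, its size factors in edgeR, library totals, no filter, a minimum of 10 counts per library, one fit over all 14 libraries, a replicate block and each library left out.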

Additional observations from a re-analysis of the deposited data

How the results depend on the processing

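With 2 libraries per condition the calls of members depended on the test, the filter and single libraries. Among the log2 fold changes of members under all alternatives, 622 kept direction and side of the threshold, 31 gained a call, 34 lost one and 17 changed sign. By DESeq2 the number of members called went from 0 to 3 between late G&N-L and G&N, to 6 between Lac-CoA and G&N-L, to 2 between Lac-CoA and G&N, and to 1 between H3K18R and WT. Without a filter it was 3, 0, 0 and 1 for these, and 3 for the interaction of stage and lactate, and with at least 10 counts in every library it was 3 between late G&N-L and G&N. That filter left Obox6 and Obox8 untested between late and early G&N and Obox8 in G&N-L. Over all genes DESeq2 called 3623 higher and 2314 lower against 1591 and 1063 by edgeR between late and early G&N, 3105 and 2077 against 1111 and 1092 in G&N-L, and 2020 higher and 2131 lower against 368 and 509 between WT and G&N.

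Leaving out each library in turn gave 1 to 7 members called between late and early G&N, 3 to 5 in G&N-L (3 without late G&N-L replicate 1), 0 to 5 between WT and G&N and 0 to 1 for the interaction, where the call needed early G&N replicate 1 to be left out, and 0 in the other comparisons. Signs changed between early G&N-L and G&N for Obox1 (-0.06 to 0.53), Obox2 (-0.81 to 0.47), Obox3 (-0.55 to 1.92) and Obox5 (-0.25 to 0.06), and between late G&N-L and G&N for Obox1 (-0.32 to 0.75). They also changed between Lac-CoA and G&N-L for Obox7 (-1.13 to 0.30), between Lac-CoA and G&N for Obox3 (-0.33 to 0.42) and Obox6 (-0.52 to 0.03), between H3K18R and WT for Obox3 (-0.45 to 0.43) and Obox5 (-0.00 to 1.21), and in the interaction for Obox1 (-0.48 to 0.60). None of these was called.

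With all 14 libraries in one fit Obox3 was at -0.08 between Lac-CoA and G&N, Obox7 lost its call between late and early G&N (adjusted p = 0.115) and Obox8 between WT and G&N (adjusted p = 0.0893). Library totals gave Obox5 0.03 between late and early G&N-L, and set medians of -1.59 over the maternal members between late and early G&N and 1.25 over the zygotic members between Lac-CoA and G&N-L. Without Obox5 and Obox6, which had the highest CPM of their sets except that Obox3 exceeded Obox6 in the early groups, the mean log2 ratio of zygotic to maternal CPM was -12.59 in early G&N, -2.31 in late G&N, -3.73 in late G&N-L and -1.42 with Lac-CoA.

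With the replicate number as a block, Obox3 was at -0.01 between H3K18R and WT, Obox7 lost its call between late and early G&N-L (adjusted p = 0.0539) and Obox6 gained one between WT and G&N (adjusted p = 0.0465), and over all genes 1111 higher and 1092 lower calls between late and early G&N-L became 699 and 692. The libraries share only a number, and the block changed no other call of a member. The cause of these changes was not tested.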
